A study of Mus musculus with 9 samples.

Results

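Bile acid transport in the intestinal epithelium was examined through 6 genes of 29288 in the count table, chosen by name: the nuclear receptor FXR (Nr1h4), the apical bile acid importer ASBT (Slc10a2), the cytosolic bile acid carrier (Fabp6), both chains of the basolateral exporter OSTα-OSTβ (Slc51a and Slc51b), and the FXR-induced hormone FGF15 (Fgf15). The 6 genes were read in intestinal epithelial cells (IECs) of female wild-type C57BL/6J mice, 7 to 10 weeks old. The cells came from proximal small intestinal crypts and had been sorted as live EpCAM+ Ter119- CD31- CD45- cells. Each mouse had received an intraperitoneal injection of PBS (control, 3 mice, sampled at 18 h) or of 2 µg αGalCer, a glycolipid antigen of NKT cells (18h-αGal and 72h-αGal, 3 mice each, sampled 18 h and 72 h later). The controls were sampled at 18 h only, so at 72 h treatment and time cannot be told apart. The labels describe no pairing of mice across groups.

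Bile acids are taken up from the intestinal lumen through ASBT, cross the cell bound to FABP6 and leave it at the basolateral side through OSTα-OSTβ, whose chains must pair to reach the membrane and transport. Inside the cell, bile acids activate FXR, which pairs with RXR and induces Slc51a, Slc51b, Fabp6 and Fgf15, and FGF15 carries the signal to the liver, where it restrains bile acid synthesis. Active uptake is known as a function of the ileum, and GATA4 is known to hold the ileal programme off in more proximal epithelium.

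In the crypt IECs 3 of the 6 genes were expressed and 3 were close to background. Nr1h4 fell at 18 h to about the level of 0.50 times the control. Slc51b was lower at 72 h than at 18 h, while Slc51a gave no call in any comparison. The calls of Nr1h4 and Slc51b were each lost in 7 of 16 other settings of the analysis. Of 12 enterocyte markers, 11 were also lower at 72 h than at 18 h, with 0 called. Relative to these markers the fall in Slc51b was smaller, at -0.69 on the log2 scale. Slc10a2, Fabp6 and Fgf15 had at most 24 reads in any library.

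RefSeq places all 6 genes on the assembly GRCm38.p6. Nr1h4 spans chr10:89454234-89533645, Slc10a2 chr8:5083219-5105287, Fabp6 chr11:43596040-43601562, Slc51a chr16:32475578-32487879, Slc51b chr9:65412753-65422773 and Fgf15 chr7:144896532-144900953. Promoter sequences from the same assembly were found for 5 of the 6 genes. Those of the 3 expressed genes are given here because the letters AGGTCA, the core element that FXR and related nuclear receptors recognise, occur in each of them. The sequences are the 250 bases before the annotated start, 5′ to 3′ on the strand of the gene (the minus strand for all 3), at chr10:89506659-89506908, chr16:32487880-32488129 and chr9:65422774-65423023. Capitals mark AGGTCA or, on the opposite strand, TGACCT.
Nr1h4: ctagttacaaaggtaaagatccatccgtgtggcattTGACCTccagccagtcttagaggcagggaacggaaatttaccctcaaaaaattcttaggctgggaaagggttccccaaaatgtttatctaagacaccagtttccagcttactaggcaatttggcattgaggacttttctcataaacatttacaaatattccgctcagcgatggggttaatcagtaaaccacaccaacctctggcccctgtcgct
Slc51a: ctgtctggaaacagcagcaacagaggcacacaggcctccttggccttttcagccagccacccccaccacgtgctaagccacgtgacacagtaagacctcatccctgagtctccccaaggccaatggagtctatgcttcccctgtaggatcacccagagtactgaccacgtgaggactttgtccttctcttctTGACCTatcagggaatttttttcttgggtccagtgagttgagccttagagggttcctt
Slc51b: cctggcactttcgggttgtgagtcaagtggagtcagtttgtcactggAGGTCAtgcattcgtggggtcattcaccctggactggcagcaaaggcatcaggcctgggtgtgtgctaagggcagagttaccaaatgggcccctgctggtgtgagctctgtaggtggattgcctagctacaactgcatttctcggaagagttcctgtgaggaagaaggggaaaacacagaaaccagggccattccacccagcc
The annotated Nr1h4 start used here lies inside the span of the gene. The element began 214 bases before this start for Nr1h4, 58 bases before the start for Slc51a and 203 bases before it for Slc51b. Counted over windows from 250 bases before to 50 bases after each start, on both strands, AGGTCA was present in 3 of the 5 promoters and in 16.3% of all 32851 promoters in the table. The inverted repeat AGGTCANTGACCT, the arrangement best known for FXR, was present in 0 of the 5 and in 0.00913% of all promoters. The windows of Slc10a2 and Fabp6 held neither. These are matches of letters only, and binding of FXR was not measured.

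Total counts per library ranged from 8887861 (control 3) to 32722293 (control 1), a 3.68-fold range. The labelled segment was checked against marker lists. Proximal markers summed to between 1118 and 1738 CPM (the count relative to the library's total) and distal markers to between 117 and 362 CPM. Immune markers, of which 11 of 12 were in the table, summed to between 8.98 and 16.1 CPM. The sum of 12 enterocyte markers varied more, from 10213 to 23753 CPM in control, 13108 to 19275 CPM in 18h-αGal and 6868 to 12344 CPM in 72h-αGal, with the highest value in control 3. The 6 stromal and endothelial markers summed to 18.1 to 26.9 CPM in control, 29.9 to 33.0 CPM in 18h-αGal and 8.19 to 9.56 CPM in 72h-αGal, and 2 of them were at 0 in every 72h-αGal library. Most of this sum was Vim, which was called higher at 18 h (350 ± 90.2 to 595 ± 46.0 normalised counts, SD, n = 3, edgeR adjusted p = 0.0435), whereas the other 2 markers tested, Pecam1 (38.9 to 15.3 normalised counts) and Col1a1 (21.6 to 2.76), had lower means at 18 h and were not called. The 6 crypt stem and progenitor markers summed to 1940 to 3976 CPM in control, 1217 to 2603 CPM in 18h-αGal and 2769 to 4133 CPM in 72h-αGal, with 0 of 6 called by edgeR in any comparison and 2, 1 and 2 with an unadjusted p under 0.05 at 18 h, at 72 h and between both times. Within that list the stem cell genes Olfm4 (38098 normalised counts in control and 15916 at 18 h) and Lgr5 (2199 and 944) had lower means at 18 h, and the proliferation genes Mki67 and Top2a had higher ones. The 8 secretory markers summed to 4731 to 6843, 4026 to 7748 and 5617 to 7588 CPM. Of these, Chga and Chgb, markers of enteroendocrine cells, were called higher at 18 h (log2 fold changes of 0.61 and 0.72) and lower at 72 h (-1.13 and -1.06) against control, and both and the tuft cell gene Trpm5 were called lower at 72 h than at 18 h. The part of these differences in cell makeup in the results below was not tested. In bulk samples fewer cells of a type and less RNA per cell cannot be told apart.

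Levels are given as normalised counts, the deposited counts after division by 1 size factor per library. Per kilobase of exon, which allows genes to be compared with each other, Slc51a had the highest level in control (575 ± 246 normalised counts per kilobase, SD, n = 3), followed by Slc51b (357 ± 203) and Nr1h4 (179 ± 46.5). Within each control library Slc51b per kilobase was 0.536 to 0.688 times Slc51a, so this order held in every control mouse although the ranges of both genes overlapped between mice. Fabp6 followed at 13.5 ± 5.82, Fgf15 at 4.09 ± 4.29 and Slc10a2 at 0.283 ± 0.490. Fabp6 and Fgf15 overlapped in range, as did Fgf15 and Slc10a2. By mean normalised count, not corrected for length, Slc51a stood above 90.7% of the genes in the table, Nr1h4 above 80.2% and Slc51b above 73.2%, while Fgf15, Slc10a2 and Fabp6 stood above 38.9%, 35.2% and 31.8%.

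Nr1h4 encodes FXR, the bile acid receptor. Its normalised counts were 847, 656 and 1105 in the control mice, 371, 409 and 533 in the 18h-αGal mice and 690, 718 and 355 in the 72h-αGal mice. All 18h-αGal mice lay below all control mice, and the 72h-αGal mice spread over both groups. The mean fell from 869 ± 226 to 438 ± 84.4 at 18 h (SD, n = 3 each) and was 588 ± 202 at 72 h. Across the genes tested with edgeR's quasi-likelihood test, 5.96% were called at 18 h against control (Benjamini-Hochberg adjusted p under 0.05), 3.27% as higher and 2.69% as lower, and 23.8% had no overlap between the replicates. Of the 5 members tested in this comparison, Nr1h4 was the 1 called, with a log2 fold change of -0.98 ± 0.26 (SE), a 95% interval from -1.54 to -0.42 and an adjusted p of 0.0400 by edgeR. At 72 h the log2 fold change against control was -0.55 ± 0.26, with an interval from -1.10 to 0.01 and an adjusted p of 0.841 by edgeR. The difference between both times, 72h-αGal minus 18h-αGal, was 0.43 ± 0.26 on the log2 scale with an adjusted p of 0.336 by edgeR, so a return of Nr1h4 by 72 h was not established.

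The direction of the Nr1h4 difference at 18 h held in all 16 other settings tried, with log2 fold changes from -1.14 to -0.79, and the call held in 9 of them. It was lost without control 1, control 3, 18h-αGal 1, 18h-αGal 2 or 72h-αGal 1, with edgeR adjusted p-values of 0.111, 0.0836, 0.131, 0.161 and 0.0560. It was also lost with limma-trend on the normalised counts, at an adjusted p of 0.0509, and with a block for replicate number, at an edgeR adjusted p of 0.0984.

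**Figure D1:**
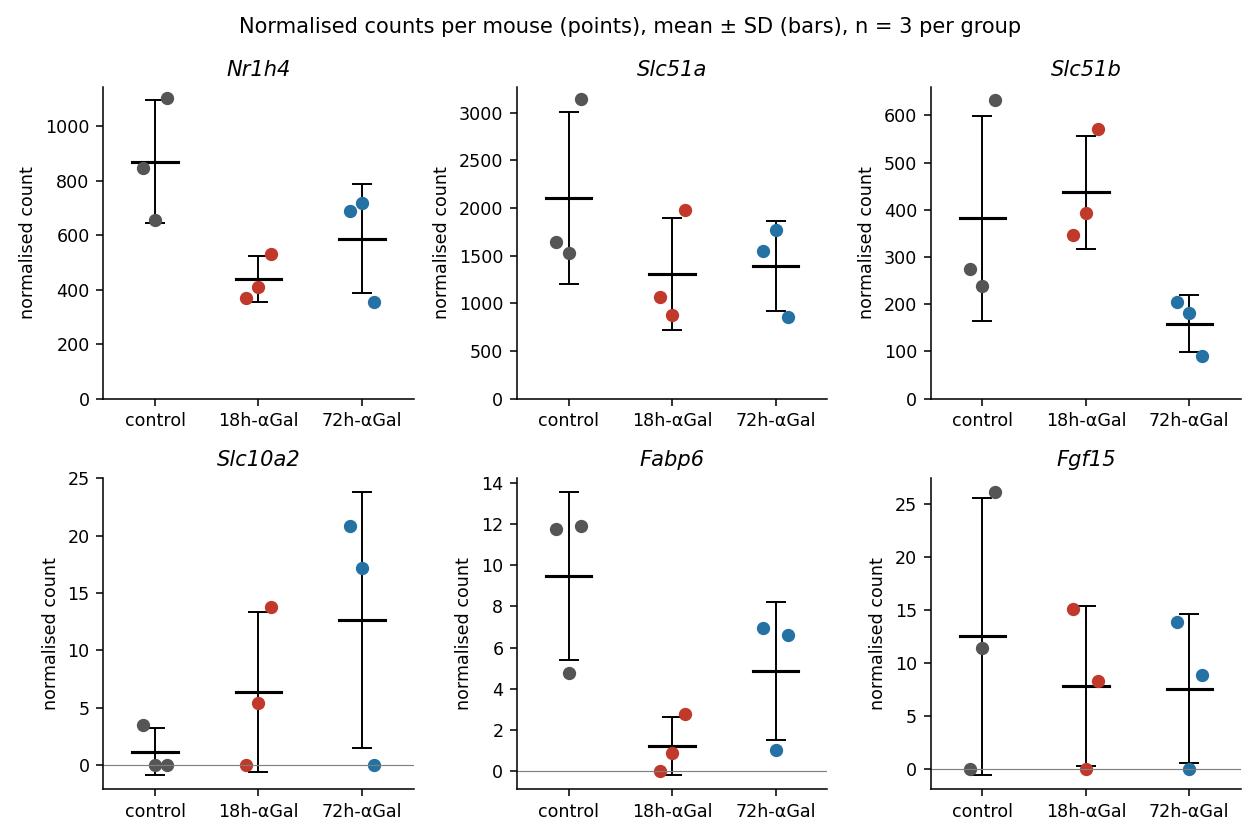
Normalised counts of the 6 genes (y axis, linear, a separate scale for each gene) in control, 18h-αGal and 72h-αGal, with 1 point per mouse, the mean as a wide bar and the SD as whiskers (n = 3). The 18h-αGal points of Nr1h4 (371 to 533) lie below its control points (656 to 1105), the 72h-αGal points of Slc51b (90.5 to 205) lie below those of both other groups, and no value of Slc10a2, Fabp6 or Fgf15 exceeds 26.2.

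Slc51a encodes OSTα, the larger chain of the exporter. Its normalised counts were 1646, 1526 and 3145 in control, 1066, 874 and 1974 in 18h-αGal and 1546, 1767 and 861 in 72h-αGal. Control 3 was far above the other control mice, and the 3 groups overlapped. The means were 2106 ± 902, 1305 ± 588 and 1391 ± 472 (SD, n = 3). The log2 fold changes were -0.68 ± 0.43 at 18 h and -0.58 ± 0.43 at 72 h against control, with edgeR adjusted p-values of 0.439 and 0.904. Their 95% intervals, from -1.69 to 0.33 and from -1.58 to 0.43, include both no difference and a difference as large as that of Nr1h4. Between 72 h and 18 h the log2 difference was 0.10 ± 0.43, with an edgeR adjusted p of 0.922. Of the exonic bases of Slc51a, 25.2% overlap those of Pcyt1a on the opposite strand. The study's methods name a directional library kit (NEBNext Ultra II Directional) for these libraries. The strand setting of the counting was not given in the sources used here, so reads from both genes may not be separated. Pcyt1a, with a mean of 3392 ± 1237 normalised counts in control, had a log2 fold change of 0.24 at 18 h (edgeR adjusted p = 0.613).

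Slc51b encodes OSTβ, the partner chain. Its normalised counts were 275, 239 and 632 in control, 346, 393 and 571 in 18h-αGal, and 205, 180.5 and 90.5 in 72h-αGal. The 72h-αGal mice were below all mice of both other groups, and the control and 18h-αGal mice overlapped. The means were 382 ± 217, 437 ± 119 and 159 ± 60.3 (SD, n = 3). In 72h-αGal against 18h-αGal, 10.2% of all genes were called by edgeR, 4.18% as higher and 6.04% as lower, and 32.8% had no overlap. Slc51b was the 1 member called in that comparison, with a log2 fold change of -1.46 ± 0.39 (95% interval -2.30 to -0.61, edgeR adjusted p = 0.0341). Against control, the log2 fold change at 72 h was -1.24 ± 0.39 (95% interval -2.09 to -0.39). With an edgeR adjusted p of 0.810 it was not called, in a comparison where only 0.0264% of genes were called and 12.7% had no overlap, although its unadjusted p was 0.00807. At 18 h the log2 fold change was 0.22 ± 0.38 (95% interval -0.61 to 1.05, edgeR adjusted p = 0.808).

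The Slc51b difference between 72 h and 18 h kept its direction in all 16 other settings tried, from -1.68 to -1.17 on the log2 scale, and its call in 9. Without 18h-αGal 2, 18h-αGal 3, 72h-αGal 1, 72h-αGal 2 or 72h-αGal 3 the edgeR adjusted p was 0.0819, 0.106, 0.0552, 0.0799 and 0.119, and with no filter on low counts it was 0.0522. With a block for replicate number the edgeR adjusted p was 0.0802. Control 3 decided the size of the comparisons with control: without it the log2 fold change of Slc51b was 0.76 at 18 h (edgeR adjusted p = 0.172) and -0.70 at 72 h (edgeR adjusted p = 1.0). Without control 2 or 18h-αGal 3 the value at 18 h was -0.0235 and -0.0105. Slc51b shares 8.50% of its exonic bases with Rasl12 on the opposite strand, a gene with a mean of 79.9 ± 21.6 normalised counts in control.

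**Figure D2:**
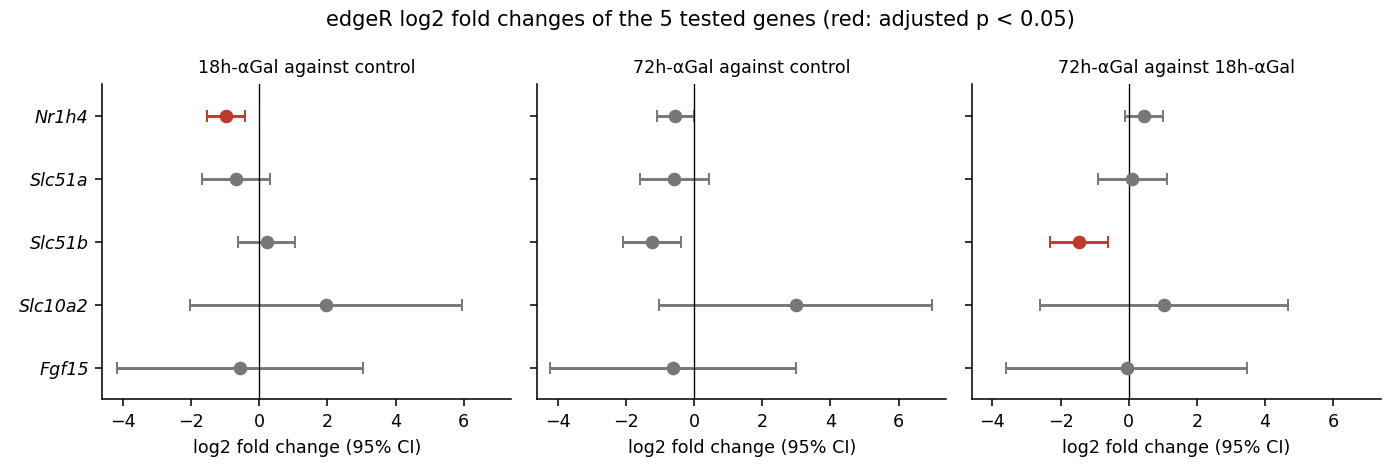
Log2 fold changes from edgeR (x axis) for the 5 genes tested, in the 3 comparisons of groups named above each panel, with whiskers for the 95% interval. Red marks an adjusted p under 0.05: Nr1h4 at 18 h (-0.98) and Slc51b between 72 h and 18 h (-1.46), while the intervals of Slc10a2 and Fgf15 include 0 in all 3 panels and are the widest shown.

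Because both chains of the exporter were measured in the same libraries, their ratio was taken within each mouse, a comparison added after the data had been seen. In control the libraries held 16.7, 15.7 and 20.1 Slc51b counts per 100 Slc51a counts. In 18h-αGal they held 32.5, 44.9 and 28.9, and in 72h-αGal 13.3, 10.2 and 10.5. The 3 groups did not overlap, with means of 17.5 ± 2.32, 35.4 ± 8.39 and 11.3 ± 1.68 (SD, n = 3). The ratio was 2.00-fold that of control at 18 h and 0.647-fold at 72 h. Each of these, and the difference between both times, gave an exact two-sided permutation p of 0.1, the smallest that 3 mice against 3 allow, and 0.15 after Benjamini-Hochberg adjustment over 12 tests of within-library ratios. Corrected for exon length, Slc51b was 0.599 ± 0.0794 times Slc51a in control, 1.21 ± 0.287 times at 18 h and 0.388 ± 0.0574 times at 72 h. Reads of Pcyt1a counted in Slc51a, if any, would enter this ratio, and their part in it was not tested.

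The ratio of each exporter chain to its regulator was also read per kilobase in each library. Slc51b per kilobase was 1.47 to 2.59 times Nr1h4 in control, 4.23 to 4.86 times at 18 h and 1.14 to 1.35 times at 72 h. The 18h-αGal mice were above all others in this ratio. The lower Nr1h4 counts at 18 h enter it as the divisor, so it is not a separate result, and it was not tested. Slc51a per kilobase ranged from 2.57 to 3.77 times Nr1h4 in control, from 2.83 to 4.91 at 18 h and from 2.97 to 3.26 at 72 h, and these ranges overlapped.

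The level of enterocyte RNA differed between libraries, and all 3 expressed genes are known from absorptive cells, so their counts were also set against the 12 enterocyte markers of the same library, a scaling added after the data had been seen. At 18 h against control, 5 of the 12 markers were lower and 7 higher, with a median log2 fold change of 0.06 against -0.03 for all genes tested. At 72 h, 12 of 12 were lower, with a median of -0.77 against 0.00 for all genes. None of the 12 was called by edgeR in either comparison, though 1 and 2 had an unadjusted p under 0.05. Between 72 h and 18 h, 11 of the 12 were lower and 1 higher, with a median of -0.85 against 0.05 for all genes. In that comparison 0 were called (lowest edgeR adjusted p = 0.0629). Of the 12, 6 had an unadjusted p under 0.05 and 6 had no overlap between replicates, against 32.8% of all genes without overlap. Per 1000 enterocyte marker counts there were 3.13, 3.50 and 2.20 Nr1h4 counts in control, 1.25, 1.61 and 1.34 in 18h-αGal and 3.70, 3.01 and 2.90 in 72h-αGal. The 18h-αGal mice were below all others. Relative to these markers Nr1h4 at 18 h was 0.482-fold control, with an exact two-sided permutation p of 0.1.

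Slc51a gave 6.08, 8.15 and 6.27 counts per 1000 enterocyte marker counts in control, 3.60, 3.44 and 4.97 in 18h-αGal and 8.29, 7.41 and 7.02 in 72h-αGal. On this scale the 18h-αGal mice did not overlap the other groups, at 0.583-fold control (exact two-sided permutation p = 0.1). Against control at 72 h, the log2 differences of Nr1h4 and Slc51a were 0.14 and 0.16 on this scale (exact permutation p = 0.7 and 0.3), where those by edgeR were below 0. Slc51b gave 1.02, 1.28 and 1.26 in control, 1.17, 1.55 and 1.44 in 18h-αGal and 1.10, 0.757 and 0.738 in 72h-αGal. Its 72h-αGal values overlapped control and stayed below 18h-αGal, at 0.618-fold (exact two-sided permutation p = 0.1). The fall in Slc51b between both times was thus smaller relative to enterocyte markers, at -0.69 on the log2 scale.

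**Figure D3:**
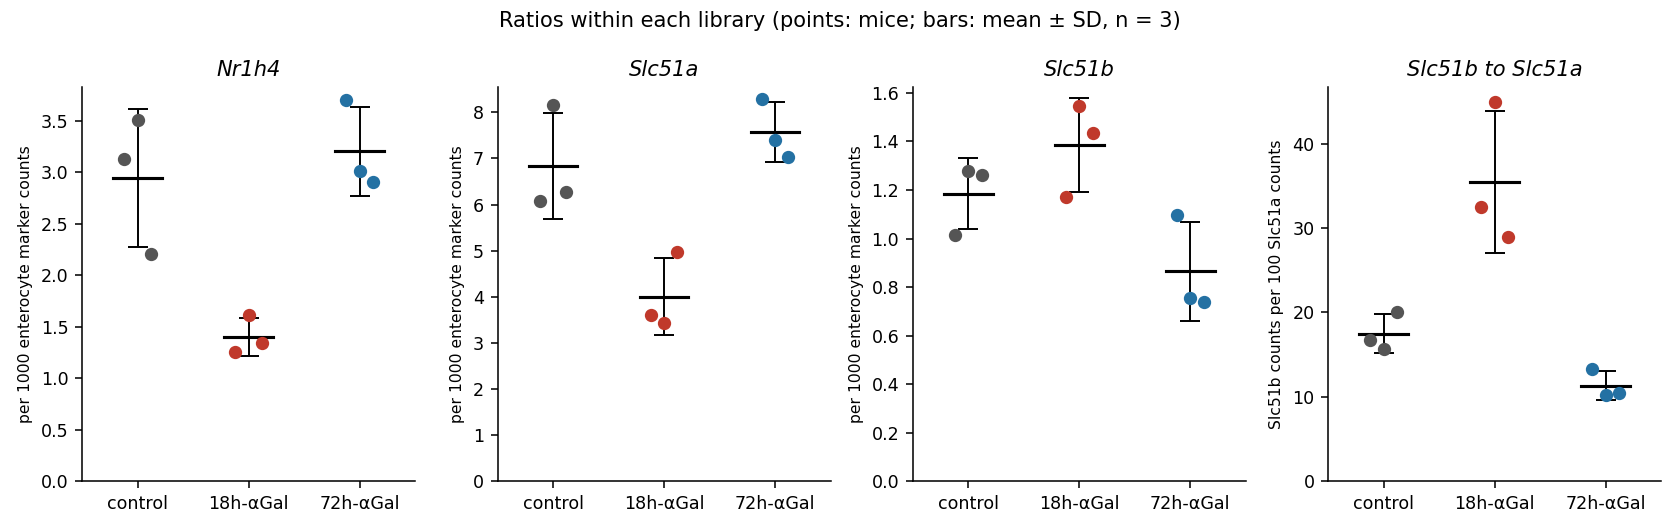
Within-library ratios (y axes, linear from 0) in the 3 groups, with 1 point per mouse and mean ± SD: Nr1h4, Slc51a and Slc51b per 1000 counts of 12 enterocyte markers, and Slc51b counts per 100 Slc51a counts. Nr1h4 and Slc51a are lowest in all 18h-αGal mice, and Slc51b per 100 Slc51a is highest there (28.9 to 44.9) and lowest at 72 h (10.2 to 13.3).

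The other genes of the ileal uptake route were near the limit of detection. Slc10a2, the importer ASBT, had 6, 0 and 0 reads in control, 0, 6 and 10 in 18h-αGal and 18, 17 and 0 in 72h-αGal. It was at 0 in 4 of 9 libraries and reached at most 1.11 CPM. Where it was at 0, up to 3 reads remain possible, for counting error only. This is 0.0974 CPM in the largest of these libraries (18h-αGal 1) and 0.338 CPM in the smallest (control 3). Its log2 fold change was 1.96 ± 1.87 at 18 h and 2.99 ± 1.88 at 72 h, with edgeR adjusted p-values of 0.615 and 0.885 and 95% intervals from -2.03 to 5.95 and from -1.02 to 6.99. No difference was detectable at this depth.

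Fgf15, the hormone induced by FXR, had 0, 12 and 11 reads in control, 24, 0 and 6 in 18h-αGal and 12, 0 and 12 in 72h-αGal. Each group held 1 library at 0, and the highest value was 1.24 CPM. Its log2 fold changes were -0.56 ± 1.69 at 18 h and -0.62 ± 1.69 at 72 h, with edgeR adjusted p-values of 0.898 and 0.988. Exons of Fgf15 overlap those of Gm26793 and Gm39119 on the opposite strand, and the part of these genes in its reads was not tested. Fabp6, the cytosolic carrier, had 20, 5 and 5 reads in control, 0, 1 and 2 in 18h-αGal and 6, 1 and 9 in 72h-αGal, at most 0.611 CPM. As normalised counts the 18h-αGal mice (0, 0.898 and 2.76) lay below the control mice (11.7, 4.75 and 11.9). These 2 groups did not overlap in 23.8% of the genes tested either, and for Fabp6 the separation rests on 0, 1 and 2 reads against 20, 5 and 5. The gene was removed by the filter on low counts, and in a fit without that filter its edgeR adjusted p was 0.440 at 18 h, 0.987 at 72 h and 0.654 between both times. Between 67.9% and 72.5% of the values from 1 to 30 in each library were even numbers, so the reads of these 3 genes may be fewer independent fragments than the counts show. Whether both reads of a pair had been counted was not tested.

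Beyond the 6 genes, 55 other genes of bile acid biology were listed in 5 groups, of which 51 were in the table and 47 were tested. At 18 h against control, 3 of the 47 were called lower and 0 higher by edgeR, 6.38% against 5.96% of all genes. At 72 h against control 0 were called, with the lowest adjusted p at 0.714 by edgeR and 1 called by DESeq2. Between 72 h and 18 h, 3 were called higher and 1 lower, 8.51% against 10.2% of all genes. In the main edgeR fit these shares are near the background. The count at 18 h depended on the setting: it was 10 with DESeq2, 6 without the filter on low counts, 6 without robust estimation, 1 with only the 2 groups compared and 0 to 7 when 1 library was left out. It was 0 without 18h-αGal 1, 18h-αGal 2 or 72h-αGal 1, 1 without control 1 or control 3, and 7 without 18h-αGal 3, and 0 genes were called higher in each of these. Between 72 h and 18 h, 7 were called higher and 1 lower with DESeq2, 5 and 1 without control 3 or without robust estimation, 5 and 0 without 18h-αGal 3, 2 and 0 without control 1, 18h-αGal 1 or 72h-αGal 2, 1 and 0 without 72h-αGal 1 or 72h-αGal 3, and 0 and 0 without 18h-αGal 2. Over all genes, the calls at 18 h numbered 1128 in the main fit, 1720 with DESeq2 and 1527 without the filter. They numbered 1039 without robust estimation and 1126 without 18h-αGal 3. In these other settings the calls among the listed genes rose more, relative to the main fit, than those over all genes. Nearness to the background at 18 h is therefore stated for the main fit only.

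The partners of FXR and the regulators of the ileal programme gave 0 calls of 11 tested in each comparison, with a median log2 fold change of -0.10 at 18 h against -0.03 for all genes. Hnf4a, a nuclear receptor of differentiated gut epithelium, had 20453, 19616 and 21679 normalised counts in control and 22115, 21989 and 19999.8 at 18 h (log2 fold change 0.06 ± 0.10, edgeR adjusted p = 0.798). Gata4, which marks proximal epithelium, had a log2 fold change of -0.06 ± 0.13 at 18 h. Gata6, its paralogue, had -0.24 ± 0.11. Rxra, the partner with which FXR binds DNA, had a mean of 3804 ± 646 normalised counts in control and 3395 ± 551 at 18 h, a log2 fold change of -0.16 ± 0.14 (edgeR adjusted p = 0.592). Nr0b2, which encodes SHP, the FXR-induced repressor, was low and scattered, at 84.6, 72.1 and 23.8 normalised counts in control, 20.2, 96.1 and 162.8 at 18 h and 41.7, 81.7 and 37.5 at 72 h. The groups overlapped (log2 fold change at 18 h 0.57 ± 0.64, edgeR adjusted p = 0.683).

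Other carriers of bile acids and related lipids gave 0 calls of 13 tested in either comparison with control, with a median log2 fold change of -0.28 at 18 h. Abcc2, the apical efflux pump MRP2, had a mean of 7160 ± 1439 normalised counts in control and 4288 ± 979 at 18 h (log2 fold change -0.73 ± 0.24, edgeR adjusted p = 0.116). Abcc3, the basolateral efflux pump MRP3, had 4451, 3870 and 5972 normalised counts in control, 2275, 2486 and 4047 at 18 h and 5506, 4952 and 4425 at 72 h. All 72h-αGal mice were above all 18h-αGal mice, and control overlapped both. Abcc3 was called higher at 72 h than at 18 h (log2 fold change 0.77 ± 0.21, edgeR adjusted p = 0.0397). The call was lost without control 1 or any library of these 2 groups except 18h-αGal 3, at edgeR adjusted p-values from 0.0622 to 0.141, and also with RLE scaling (0.05003) and without the filter on low counts (0.0911). Against control its log2 fold change was -0.69 ± 0.21 at 18 h, with an edgeR adjusted p of 0.0781. Abcg5, a subunit of the sterol exporter, had 3369, 3005 and 6478 in control and 2641, 2680 and 3661 at 18 h, with overlapping groups.

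Genes of bile acid sensing and detoxification held 2 of the 3 calls at 18 h, both lower, of 11 tested. Their median log2 fold change was -0.52 against -0.03 for all genes, and 10 of the 11 were below 0. No overlap with control was found for 6 of the 11, against 23.8% of all genes, and 7 had an unadjusted edgeR p under 0.05. Ugt1a1, a UDP-glucuronosyltransferase that conjugates bilirubin and other compounds, had 1229, 1254 and 1888 normalised counts in control and 596, 727 and 1045 at 18 h. Ugt2b34, from a second family of these transferases, had 14569, 11218 and 17674 in control and 8333, 7016 and 11016 at 18 h. In both genes all 18h-αGal mice were below all control mice. The log2 fold changes were -0.88 ± 0.22 and -0.71 ± 0.18, with edgeR adjusted p-values of 0.0294 and 0.0306. Both calls were lost without control 1, control 3, 18h-αGal 1, 18h-αGal 2 or 72h-αGal 1, at edgeR adjusted p-values from 0.0516 to 0.134 for Ugt1a1 and from 0.0520 to 0.125 for Ugt2b34. With only the 2 groups compared they were lost as well, at 0.0597 and 0.0664 by edgeR.

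Vdr, the vitamin D receptor, which also senses the secondary bile acid lithocholic acid, had 14288, 15299 and 15432 normalised counts in control, 10684, 11679 and 13249 at 18 h and 15163, 14968 and 17203 at 72 h. It was called higher at 72 h than at 18 h (log2 fold change 0.42 ± 0.11, edgeR adjusted p = 0.0247), and the call was lost without 18h-αGal 1, 18h-αGal 2, 72h-αGal 1 or 72h-αGal 3, at edgeR adjusted p-values from 0.0542 to 0.120. Sult2b1, a sterol sulfotransferase, moved the other way between both times, with 1048, 815 and 1424 normalised counts at 18 h and 432, 425 and 232 at 72 h, against 587, 275 and 877 in control. The log2 fold change between 72 h and 18 h was -1.59 ± 0.41 (edgeR adjusted p = 0.0435), and the call was lost without any single library of both groups or without control 1, at edgeR adjusted p-values from 0.0675 to 0.139. It was also lost without the filter on low counts, at an edgeR adjusted p of 0.132.

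Of the other FXR target genes in the intestine, 0 of 8 tested were called in any comparison, and their median log2 fold change at 18 h was -0.27. At 18 h 5 of the 8 were lower and 3 higher, and the lowest edgeR adjusted p was 0.0517. An unadjusted p under 0.05 was found for 3, and 3 had no overlap with control, against 23.8% of all genes. Those without overlap were Akr1b7 (means of 197 normalised counts in control and 56.3 at 18 h), Nos2 (1266 and 174) and Car12 (798 and 517). The cargo receptor Sqstm1 had 0.03 ± 0.11 and the syndecan Sdc1 had -0.15 ± 0.12 on the log2 scale at 18 h, and neither was called. Sdc1 had 1784, 1833 and 1800 normalised counts in control and 1541, 1819 and 1480 at 18 h, with overlapping groups. The last list held genes of bile acid synthesis and of FGF15 reception, of which 5 were tested. Fgfr4, the receptor that FGF15 acts on in the liver, had 214, 388 and 126 normalised counts in control, 112, 68.3 and 93.8 at 18 h and 343, 212 and 383 at 72 h. The 18h-αGal mice were below all others. Fgfr4 was called lower at 18 h than in control (log2 fold change -1.42 ± 0.38, edgeR adjusted p = 0.0385) and higher at 72 h than at 18 h (1.78 ± 0.38, edgeR adjusted p = 0.00859). The first call was lost without control 1, control 2, any 18h-αGal library or 72h-αGal 1, at edgeR adjusted p-values from 0.0609 to 0.179, and the log2 fold change was -0.91 without control 2. It was also lost with limma-trend (adjusted p = 0.0572) and with only the 2 groups compared (edgeR adjusted p = 0.0871), and held in 7 of 16 settings in all. The second was lost only without 18h-αGal 2, at an edgeR adjusted p of 0.0514. Klb, the co-receptor that Fgfr4 needs for FGF15, had 4.70 to 43.1 normalised counts over the 9 libraries. Cyp27a1, the mitochondrial enzyme of the alternative synthesis pathway, had a log2 fold change of -1.09 ± 0.34 at 18 h (edgeR adjusted p = 0.0739).

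**Figure D4:**
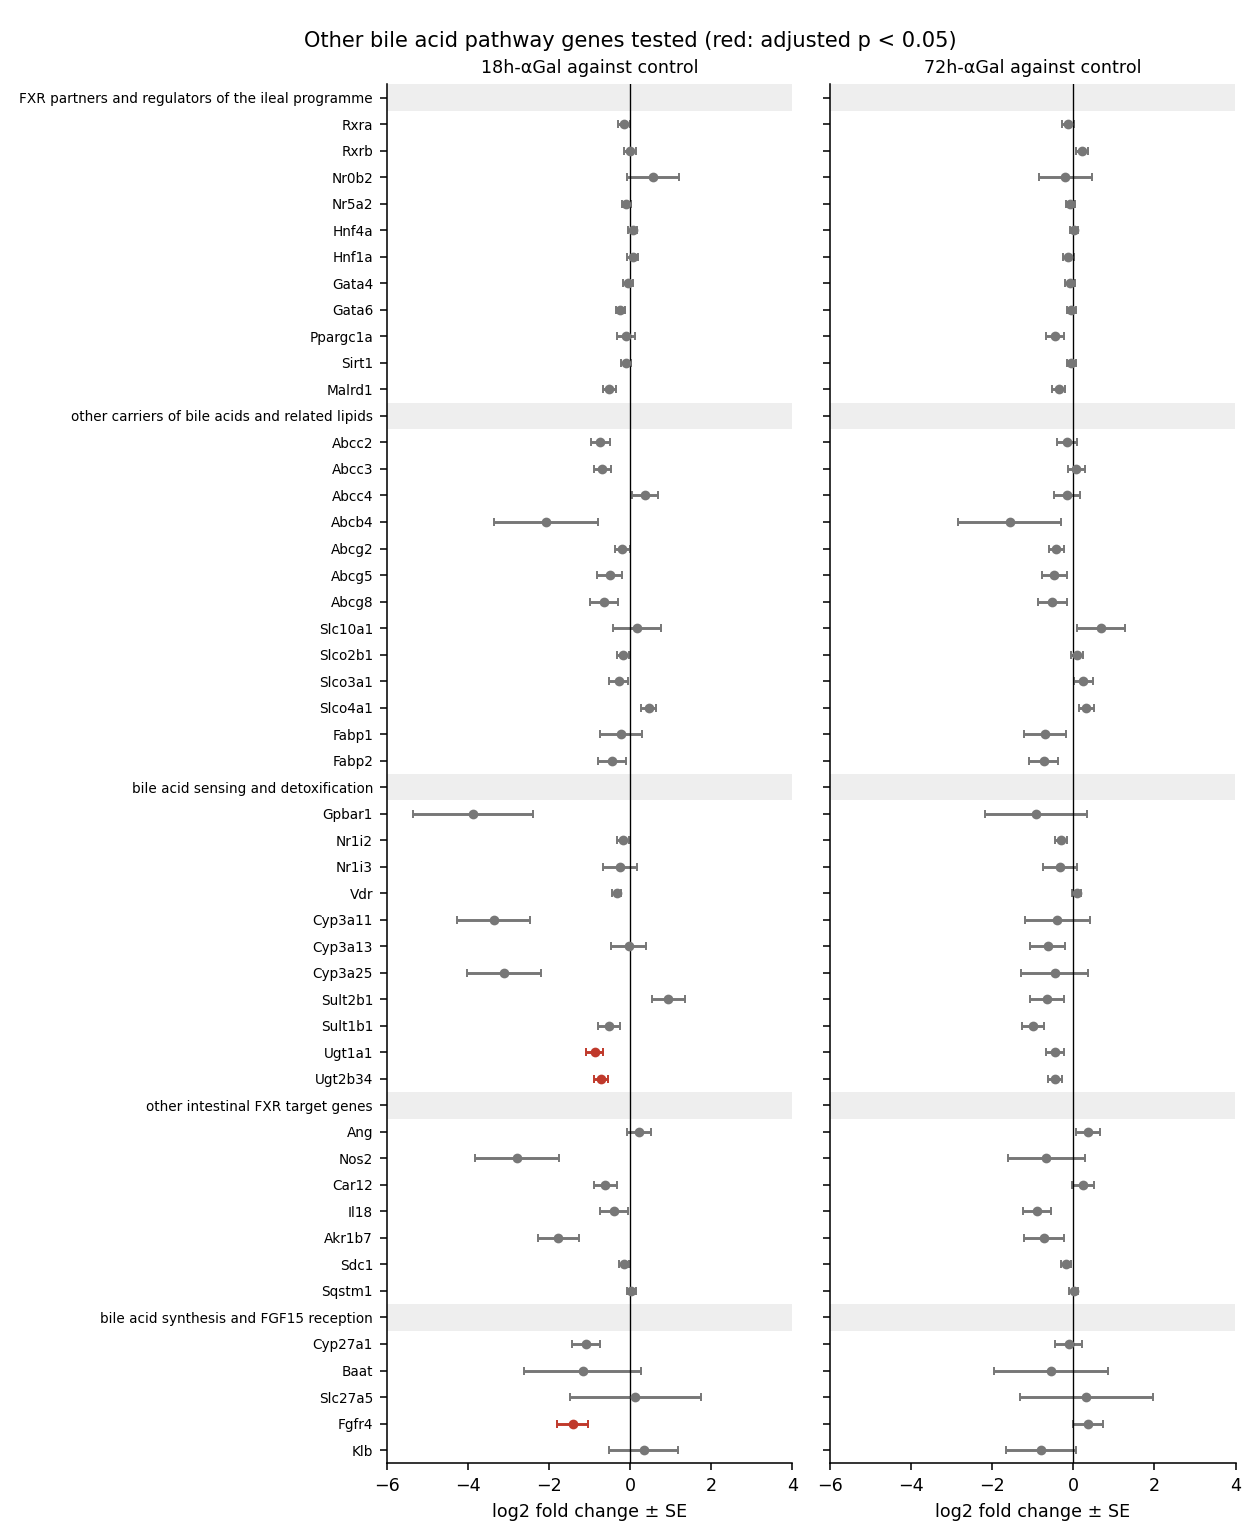
Log2 fold changes from edgeR (x axis, ± SE) for the 47 other bile acid genes tested, grouped by list, at 18 h (left) and at 72 h (right) against control. Red marks the 3 genes with an adjusted p under 0.05 at 18 h, Ugt1a1 (-0.88), Ugt2b34 (-0.71) and Fgfr4 (-1.42), and 0 are red at 72 h.

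The 3 expressed genes did not follow one pattern over the libraries. As a description over 9 libraries that share their depth and cell makeup, the Pearson correlation of log2 CPM was 0.88 between Nr1h4 and Slc51a, 0.53 between Slc51a and Slc51b and 0.31 between Nr1h4 and Slc51b. Among 13124 genes, the profiles most like that of Nr1h4 were those of Ppard, a nuclear receptor for fatty acids (0.98), Gstm3, a glutathione transferase (0.97), and Aldh1a1, a retinaldehyde dehydrogenase (0.97). For Slc51a they were Crybg2 (0.99), Slc26a3, the apical chloride and bicarbonate exchanger (0.99), and Adh6a, an alcohol dehydrogenase (0.98). For Slc51b they were Myh14, a nonmuscle myosin heavy chain (0.99), Mall (0.98) and Ap2a2, a subunit of the clathrin adaptor (0.98). For the near-silent genes the closest profiles were Mfsd3 for Slc10a2 (0.90) and Thap4 for Fgf15 (0.91), profiles that rest on the few reads of Slc10a2 and Fgf15.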

How the data were processed

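RNA-seq libraries (100 bp reads) were analysed from sorted IECs of 9 mice, 3 per group. The authors deposited raw counts of reads per gene, and also normalised counts, a signal obtained by dividing each library's raw counts by a single factor, which matched the median-of-ratios size factor of DESeq2 with a largest relative difference of 2.22e-16. The submitters' processing notes name HISAT2, featureCounts, Subread and DESeq2 1.42.0 with the build GRCm38, whereas the study's methods name GRCm39. Coordinates given here are from RefSeq GRCm38.p6 and were not converted. The deposited values are corrected neither for GC content nor for gene length, and neither the annotation release nor the strand setting of the counting is given in the sources used here.

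Of 29288 identifiers, 28480 matched GENCODE vM39, which gave symbols and exon lengths. Raw counts were tested with edgeR 4.0.16 (R 4.3.3): filterByExpr kept 18933 genes, TMM scaling, and 1 robust quasi-likelihood fit of all 9 libraries, with Benjamini-Hochberg adjustment over all genes tested. The common dispersion was 0.123. The threshold for a call was an adjusted p under 0.05. The procedure was tested on simulated data. Standard errors were derived from the F statistic. Within-library ratios were compared by exact permutation tests over mice. Each library came from 1 mouse, with total counts from 8887861 to 32722293.

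The 6 genes and all lists were chosen with earlier results of these data known. Named were the 6 genes, the called genes of each list and up to 3 others per list with high counts, and the 3 profiles closest to each tested member by correlation of log2 CPM (prior count 2). Rxra, Nr0b2, Car12, Pcyt1a, Rasl12 and the named marker genes, and the genes named among the other observations, were chosen after their values were seen. Same-numbered libraries did not deviate together (correlations from -0.15 to 0.115), so numbers were not taken as pairs. Alternatives were RLE scaling, DESeq2 1.42.0, limma-trend (limma 3.58.1, log2 of the normalised count plus 1), no filter, only the groups compared, a replicate block, no robust estimation and each library left out. Cyp7a1, Cyp8b1, Cyp7b1 and Slc10a6 were listed but were not found in the count table, so they could not be analysed.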

Additional observations from a re-analysis of the deposited data

Results flagged for a closer look

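For 5 of the bile acid genes, the effect at 18 h and the effect at 72 h differed by the test of that difference, the edgeR contrast of 72h-αGal against 18h-αGal with adjustment over all genes, in which 10.2% of all genes were called. These were 1 of the 5 members tested and 4 of the 47 other genes tested. The latter share, 8.51%, is near that of all genes. The log2 difference was -1.46 for Slc51b and -1.59 for Sult2b1, which were lower at 72 h. It was 0.77 for Abcc3, 1.78 for Fgfr4 and 0.42 for Vdr, which were higher at 72 h. Among the marker genes of cell types and segments the same test called 6, at -2.08 for Vim, -1.54 for Gcg, -1.78 for Chgb, -1.74 for Chga, -1.17 for Trpm5 and 3.65 for Gkn3. They were 3 of 8 secretory, 1 of 8 distal, 1 of 8 proximal and 1 of 3 stromal and endothelial markers tested. The other marker lists held 0 calls. Both groups were treated, and they differ in time alone by the labels. Groups of 3 were too small for a check of single outlying libraries.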

How the results depend on the processing

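The genes called at 18 h against control numbered 1128, and 1720 with DESeq2, 593 with only the 2 groups compared, and 432 to 1556 when 1 library was left out. At 72 h against control 5 were called, and 31 with DESeq2, 13 without the filter, 1 with the replicate block, 3 without robust estimation and 0 to 20 with 1 library left out. Between 72 h and 18 h 1936 were called, and 831 to 2593 with 1 library left out. The replicate block, whose numbers did not pair the mice, gave 781, 1 and 1371 genes called in the 3 comparisons and 0, 0 and 0 members. With the block, the calls of Fgfr4 at 18 h and of Sult2b1 between both times were lost as well, at edgeR adjusted p-values of 0.0944 and 0.0801. Of the members, 1 was called at 18 h, and 0 with limma-trend, 0 with the block and 0 to 1 with 1 library left out. Between 72 h and 18 h 1 was called, and 0 without the filter, 0 with the block and 0 to 1 with 1 library left out. At 72 h against control 0 members were called in every alternative.

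Signs turned only for differences that were not called. With 1 library left out, the log2 fold change of Slc51b at 18 h ran from -0.0235 (without control 2, with -0.0105 without 18h-αGal 3) to 0.76, that of Fgf15 from -1.56 to 0.50 at 18 h, from -1.36 to 0.45 at 72 h and from -0.77 to 0.94 between both times, and that of Slc51a between both times from -0.11 to 0.52. Relative to enterocyte markers, Nr1h4 and Slc51a at 72 h against control were 0.14 and 0.16. The cause was not tested. With only the 2 groups compared, Slc10a2 was not kept by the filter against control. Depth limits Slc10a2, Fabp6 and Fgf15, for which differences of several log2 units could be missed.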

Other observations

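Other listed genes had large differences without a call, and the following were chosen after their values were seen. Cyp3a11, a detoxifying cytochrome P450 induced through PXR, had 1766, 658 and 2877 normalised counts in control, 238, 134 and 127 at 18 h and 956, 2632 and 390.0 at 72 h. All 18h-αGal mice were below all others, and with control mice this scattered the log2 fold change at 18 h was -3.37 ± 0.89 with an edgeR adjusted p of 0.0884. Akr1b7, an aldo-keto reductase, had 81.1, 120.5 and 389.9 in control and 42.9, 61.1 and 64.8 at 18 h (log2 fold change -1.77 ± 0.50, edgeR adjusted p = 0.0517). Nos2, the inducible nitric oxide synthase, had 320, 383 and 3095 normalised counts in control, 223, 238 and 62.1 at 18 h and 789, 836 and 693 at 72 h. All 18h-αGal mice were below all others for Nos2 too, and control 3 was far above every other library. Malrd1, known as a regulator of ileal FGF15 output, was among the better expressed genes of its list, at 3576 ± 465 normalised counts in control and 2485 ± 571 at 18 h (SD, n = 3), and its log2 fold change of -0.52 ± 0.16 had an edgeR adjusted p of 0.0741.

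Among the markers used to place the segment, 3 genes were called at 18 h, a comparison in which 5.96% of all genes were called. They were 1 of 8 proximal markers, lower, and 1 higher and 1 lower of 8 distal markers. Of the distal markers 5 of 8, and of the proximal markers 6 of 8, had a log2 fold change below 0. Gcg, the enteroendocrine proglucagon gene listed as distal, was higher at 18 h, at 1523, 2098 and 2097 normalised counts, than in control, at 1265, 726 and 868 (edgeR adjusted p = 0.0162), and Osr2 of the same list was lower (-0.81, edgeR adjusted p = 0.0452). Gkn3, listed as proximal, had 310, 494 and 117 normalised counts in control and 35.3, 18.0 and 5.52 at 18 h (-3.87, edgeR adjusted p = 0.0146). Cubn of the distal list was not called at 18 h and was widely scattered in control, at 1230, 317 and 3661 normalised counts. It had 108, 39.5 and 103 at 18 h and 480, 2065 and 183 at 72 h. Whether the segment sampled differed between mice was not tested.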
